A study of Mus musculus with 22 samples.

Results

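The promoters of 2166 long noncoding RNA (lncRNA) genes were examined for ATRX, H3K9me3, G-quadruplex (G4) and open chromatin (ATAC) peaks in mouse embryonic stem (mES) cells. A promoter was the window reaching 1 kb to each side of the most upstream start of a curated noncoding transcript, a RefSeq NR_ record on GRCm38.p6, the patched release of the mm10 build. The gene had to lie on chromosomes 1 to 19, with no curated start of a protein-coding gene within 5 kb. For coding genes without a curated start the 5′ end of the gene was used. The lncRNA windows are 2166 of 24963 curated gene starts on the same chromosomes, of which 20021 belong to protein-coding genes. The annotation lists 12322 lncRNA genes there, 3220 of them with a curated transcript, and the distance rule left 2166 of those. Counting predicted coding starts as well would leave 2097. Some starts lie close together, so the 2166 windows form 2138 groups that do not overlap each other. Between protein-coding genes lay 1717 of the starts (79.3%), in an intron of one 406 (18.7%) and in an exon 43 (1.99%).

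All samples came from one hybrid mES cell background, CAST/Ei x 129/Sv/Jae, kept in ES medium with serum and LIF. Cells received a locked nucleic acid (LNA) gapmer, an antisense oligonucleotide that directs RNase H to its target RNA, and were collected after 12 h. The gapmer was directed against TERRA, the RNA transcribed from telomeric repeats (TERRA KD), or had a scrambled sequence (scramble KD), so both groups went through the same delivery. Each of the 4 assays had 2 replicates in each group, which gave 16 peak lists. The study calls its ATRX and G4 replicates biological, and whether those of H3K9me3 and ATAC were separate cultures is not given in the sources used here, so for these the spread behind the p-values may be technical. RNA levels were not analysed here.

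LncRNAs are transcripts that act as RNA or whose transcription itself matters, without a protein product. Some hold nuclear bodies together, some silence imprinted neighbours, some are precursors of small nucleolar RNAs or microRNAs, and a group of them is found mainly in pluripotent cells. ATRX is a chromatin remodeller that works with DAXX to place histone H3.3 at repeats and heterochromatin, H3K9me3 is the histone mark of such heterochromatin, and the antibody BG4 recognises G-quadruplexes, the stacked structures that runs of guanine can fold into.

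Library depth was 4104486 to 15506154 tags (ATRX), 5435286 to 13898785 (H3K9me3), 2961038 to 24588605 (G4) and 5976014 to 7883648 (ATAC). The lists held 7321 to 41384, 25490 to 76213, 140119 to 389434 and 78571 to 103911 peaks in the same order. Input depth differed too. For ATRX and H3K9me3 it was 3366921 (scramble KD) and 3374834 (TERRA KD) tags in replicate 1, and 19735093 and 28622103 in replicate 2. Both G4 libraries of a group had the same input tags, 23359214 (scramble KD) or 19824848 (TERRA KD), so their peak calls shared a background. The H3K9me3 lists differed in kind, since peaks in both replicate 1 lists had a median length of 2404 and 3119 bp and those in the replicate 2 lists 491 and 515 bp. The G4 list of TERRA KD replicate 2 stood apart: 20.6% of protein-coding promoters had a G4 peak in it, against 45.0% to 66.1% in the other 3 G4 lists. G4 differences over all lncRNA promoters are therefore given with and without that library, while those within CpG classes and the counts include it. Where no peak is listed, enrichment could not be detected with the tags of that library, which does not make the site unbound. In a bulk sample a site bound in more cells and a site bound more strongly in each cell cannot be told apart.

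The sequences that the G4 results turn on were read first. The G4 motif was 4 runs of at least 3 G with loops of 1 to 7 bases of any kind, G included. A long unbroken stretch of G can therefore count as several runs. The motif was searched on both strands, so that on the strand of the gene a match appears as runs of G or as runs of C. It occurred in the 2 kb window of 870 lncRNA promoters (40.2%) and of 55.2% of all curated starts. In the shorter promoter sequences of RefSeq, from 250 bases before to 50 bases after the start, 178 of 1740 lncRNA promoters (10.2%) held it, against 18.8% of the 31396 promoter entries on chromosomes 1 to 19. The RefSeq promoter table held an entry for 1748 of the 2166 genes, and for 1740 of them at the same start. The 6 promoters below hold the motif and belong to genes described later: a pair whose ATRX peaks appeared in both TERRA KD lists (Mirc35hg and 1700030C10Rik), a pair with G4 peaks in all 4 lists (Gm31786 and Mir9-3hg), 1 with G4 peaks in scramble KD alone (1700001L05Rik), and Tunar, a pluripotency-linked gene. Apart from Mirc35hg, described below, whether a match lies under a peak was not examined. Each sequence is 300 bases of RefSeq GRCm38.p6, 5′ to 3′ on the strand of the gene, with the motif in capitals and overlapping matches joined.
Mirc35hg, chr6:30174076-30174375, minus strand: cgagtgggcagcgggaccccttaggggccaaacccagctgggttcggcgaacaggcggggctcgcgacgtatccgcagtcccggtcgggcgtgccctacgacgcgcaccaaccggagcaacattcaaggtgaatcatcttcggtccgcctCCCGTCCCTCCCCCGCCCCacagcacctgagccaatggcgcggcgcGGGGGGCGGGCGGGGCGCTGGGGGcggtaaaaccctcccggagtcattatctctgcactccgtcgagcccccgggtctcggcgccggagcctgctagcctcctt
1700030C10Rik, chr12:20815730-20816029, minus strand: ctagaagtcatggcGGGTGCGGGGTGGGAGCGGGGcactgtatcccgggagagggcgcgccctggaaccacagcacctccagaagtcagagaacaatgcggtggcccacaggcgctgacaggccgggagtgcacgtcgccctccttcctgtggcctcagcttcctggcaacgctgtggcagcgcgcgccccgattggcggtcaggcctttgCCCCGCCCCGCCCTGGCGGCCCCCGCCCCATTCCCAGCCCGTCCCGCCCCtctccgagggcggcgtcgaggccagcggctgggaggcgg
Gm31786, chr8:47750143-47750442, minus strand: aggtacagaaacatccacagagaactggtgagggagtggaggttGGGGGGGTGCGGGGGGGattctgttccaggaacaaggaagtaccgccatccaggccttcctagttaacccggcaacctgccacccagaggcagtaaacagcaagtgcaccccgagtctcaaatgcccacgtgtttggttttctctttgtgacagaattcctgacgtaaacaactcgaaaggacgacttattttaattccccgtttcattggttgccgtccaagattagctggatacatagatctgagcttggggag
Mir9-3hg, chr7:79499776-79500075, plus strand: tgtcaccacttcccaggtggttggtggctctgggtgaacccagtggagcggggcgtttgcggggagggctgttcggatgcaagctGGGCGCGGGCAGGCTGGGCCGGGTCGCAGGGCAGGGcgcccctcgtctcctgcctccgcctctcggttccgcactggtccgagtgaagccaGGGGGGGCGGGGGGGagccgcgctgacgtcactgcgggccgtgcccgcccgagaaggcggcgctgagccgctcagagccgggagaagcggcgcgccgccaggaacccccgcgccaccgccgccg
1700001L05Rik, chr15:83367248-83367547, minus strand: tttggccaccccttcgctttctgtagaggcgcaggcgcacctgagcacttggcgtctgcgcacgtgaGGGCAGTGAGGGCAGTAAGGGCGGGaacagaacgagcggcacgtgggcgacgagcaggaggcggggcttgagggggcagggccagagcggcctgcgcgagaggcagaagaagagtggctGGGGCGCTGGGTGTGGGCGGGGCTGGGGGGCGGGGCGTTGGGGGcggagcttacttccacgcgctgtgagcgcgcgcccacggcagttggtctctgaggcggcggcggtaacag
Tunar, chr12:105336344-105336643, plus strand: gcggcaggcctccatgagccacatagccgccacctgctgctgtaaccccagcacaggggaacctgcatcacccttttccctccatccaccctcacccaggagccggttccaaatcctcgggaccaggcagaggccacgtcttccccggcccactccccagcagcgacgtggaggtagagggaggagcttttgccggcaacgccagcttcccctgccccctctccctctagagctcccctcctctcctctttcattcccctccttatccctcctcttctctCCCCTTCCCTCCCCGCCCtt

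With positions counted from the start at 0, Mirc35hg held the motif on its own strand at −54 to −31 and on the other strand at −100 to −82. In 1700030C10Rik a 50-base stretch of C runs crossed the start, from −39 to 10, and a G-run match lay at −236 to −216. The matches of 1700001L05Rik were both on its own strand, at −183 to −159 and at −64 to −21, as were those of Mir9-3hg at −165 to −130 and at −74 to −60. Gm31786 held a single match of 17 bases at −206 to −190. That match and the one of Mir9-3hg at −74 to −60 consist of long unbroken G stretches, which count as several runs because a loop may be G. Tunar, which sits upstream of Tcl1, held its match just inside the transcript, at 30 to 47 on the other strand. A match describes these letters and does not show that a structure forms.

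By base composition the lncRNA promoters were unlike those of protein-coding genes. Over the 1 kb centred on the start, their median GC content was 47.1% and their ratio of observed to expected CpG 0.243, against 56.0% and 0.605. Promoters with at least 50% GC and a CpG ratio of at least 0.6 were called CpG-rich, and 128 of the 2166 lncRNA promoters (5.91%) met this, against 49.2% of protein-coding promoters. Repeats covered a median of 18.1% of the 2 kb window at lncRNA genes and 13.0% at protein-coding genes. These values describe the reference sequence, and the peak shares below are therefore also given within each CpG class.

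Open chromatin marked a minority of lncRNA promoters, and far fewer of them than of protein-coding promoters. An ATAC peak overlapped 25.6% of them in scramble KD replicate 1, 31.3% in scramble KD replicate 2, 30.2% in TERRA KD replicate 1 and 33.5% in TERRA KD replicate 2. The groups overlapped, and the mean was 28.4% ± 4.02 (SD, n = 2) in scramble KD and 31.8% ± 2.32 (SD, n = 2) in TERRA KD, a difference of 3.42 percentage points (two-sided exact permutation test, p = 0.667, adjusted 0.889 over the 4 assays). With 2 libraries against 2, the smallest p this test can give is 0.333, so no comparison of the knockdowns below could reach 0.05. Protein-coding promoters carried an ATAC peak in 65.7% to 70.2% of cases. The within-library difference, lncRNA minus protein-coding, had a mean of −38.4 percentage points and lay between −40.1 and −36.7 in the 4 libraries (exact sign-flip permutation test, p = 0.125, the smallest it allows, adjusted 0.167). The knockdown change at lncRNA promoters minus that at coding ones was 1.80 percentage points (exact permutation test, p = 0.333, adjusted 0.444), and −0.0334 with peaks of −log10 p of at least 5.

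**Figure D1:**
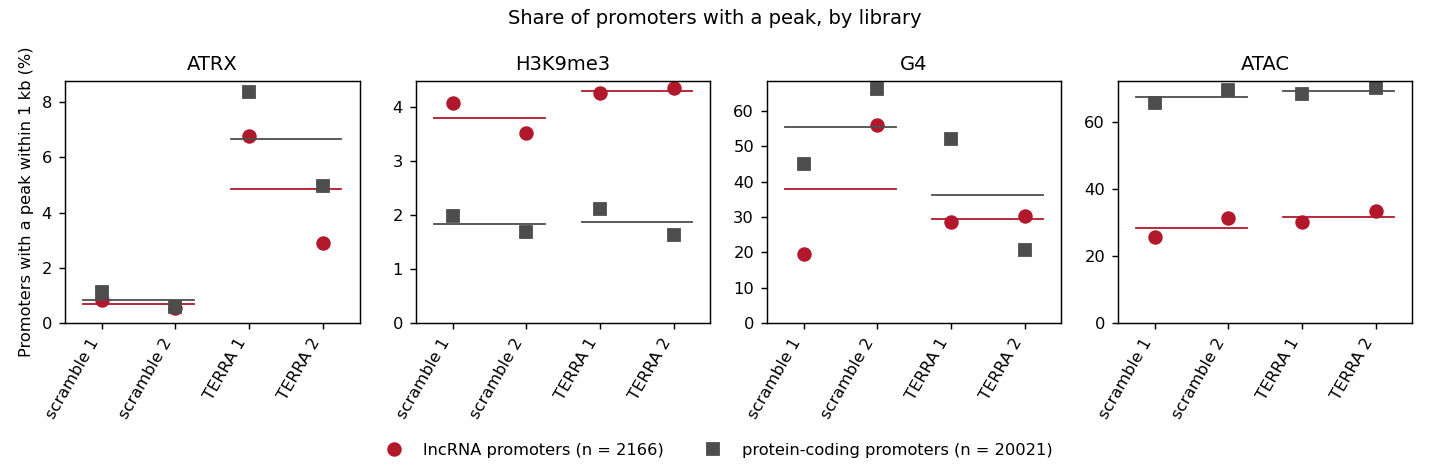
Share of promoters with a peak within 1 kb of the start (%, y axis from 0) in each library (x axis), for 2166 lncRNA promoters (circles) and 20021 protein-coding promoters (squares), with a panel per assay and lines at the mean of the 2 replicates. ATAC and H3K9me3 separate both kinds of promoter in all libraries, and for ATRX the lncRNA shares of TERRA KD, 6.79% and 2.91%, lie above those of scramble KD, 0.831% and 0.554%.

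The gap was smaller within a CpG class, and lncRNA promoters stayed below. Among CpG-rich promoters an ATAC peak was found at 91.0% ± 2.67 (SD, n = 4 libraries) of lncRNA genes and 97.1% ± 1.50 of protein-coding genes, and among the others at 26.3% ± 3.37 and 40.8% ± 2.48. The mean differences were −6.09 and −14.5 percentage points, in the same direction in 4 of 4 libraries each (exact sign-flip permutation test, p = 0.125 for both, adjusted 0.2 over 8 tests within classes). The share also differed with the distance to coding genes. Promoters 5 to 10 kb from a protein-coding start, just inside the rule, had an ATAC peak in 36.3% to 47.8% of cases over the 4 libraries (n = 157), and those 3 to 5 kb away, just outside it, in 31.0% to 42.9% (n = 84). At 100 kb or more the share was 15.4% to 22.4% (n = 765). The 798 curated lncRNA starts within 1 kb of a coding start, which the rule leaves out, had an ATAC peak in 86.7% to 90.7%.

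**Figure D2:**
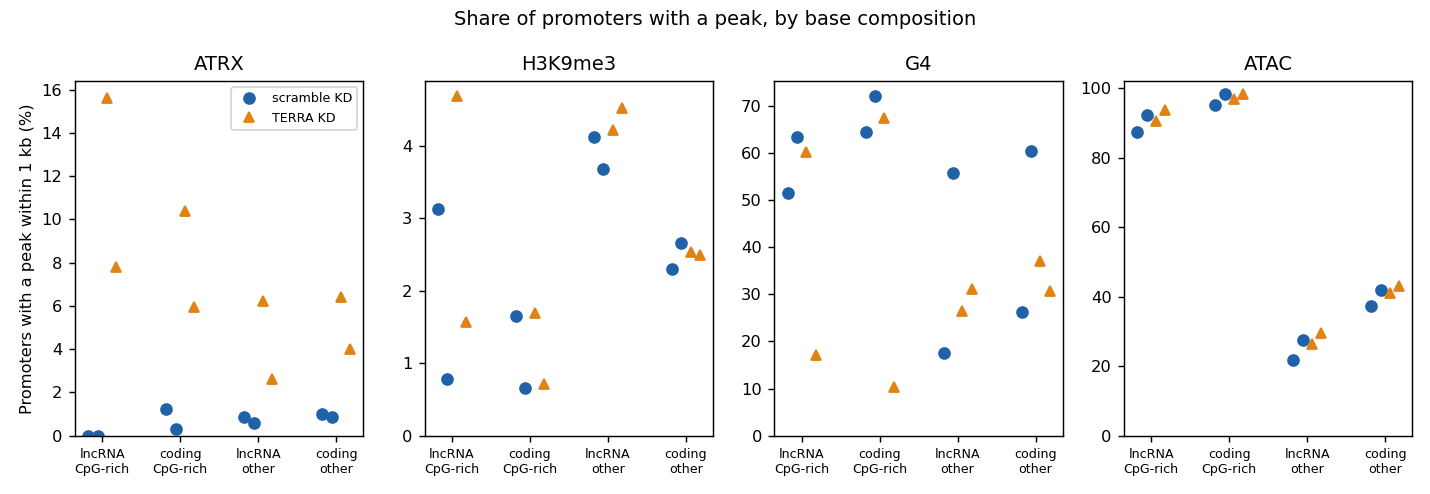
Share of promoters with a peak within 1 kb (%, y axis from 0) for lncRNA and protein-coding genes split by CpG class, 1 point per library (circles scramble KD, triangles TERRA KD). CpG-rich lncRNA promoters (n = 128) reach 87.5% to 93.8% for ATAC, while the other lncRNA promoters (n = 2038) lie at 21.7% to 29.7%. In the G4 panel CpG-rich promoters of both kinds drop to 17.2% and 10.2% in TERRA KD replicate 2.

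ATAC calls repeated well between libraries. Of the 554 promoters called in scramble KD replicate 1, 519 (93.7%) were called in replicate 2, which is 76.7% of its 677. TERRA KD shared 604 promoters, 92.4% of 654 and 83.3% of 725. In all 4 lists 485 lncRNA promoters (22.4%) had a peak, 111 of them CpG-rich, against 57.7% of all curated starts, and 1328 (61.3%) had none. Where a peak was present, summits lay about evenly to both sides of the start, with a median position of 0, −1, −28 and 4 bp. Their median distance from the start was 224 to 231 bp, against 175 to 180 bp for protein-coding genes. Within 200 bp of the start fell 44.3% to 45.9% of summits, against 54.9% to 56.8% for protein-coding genes. The ATAC share varied between chromosomes from 14.8% on chromosome 3 to 34.6% on chromosome 6 in scramble KD replicate 1 and from 19.8% on chromosome 14 to 42.6% on chromosome 8 in TERRA KD replicate 2.

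**Figure D3:**
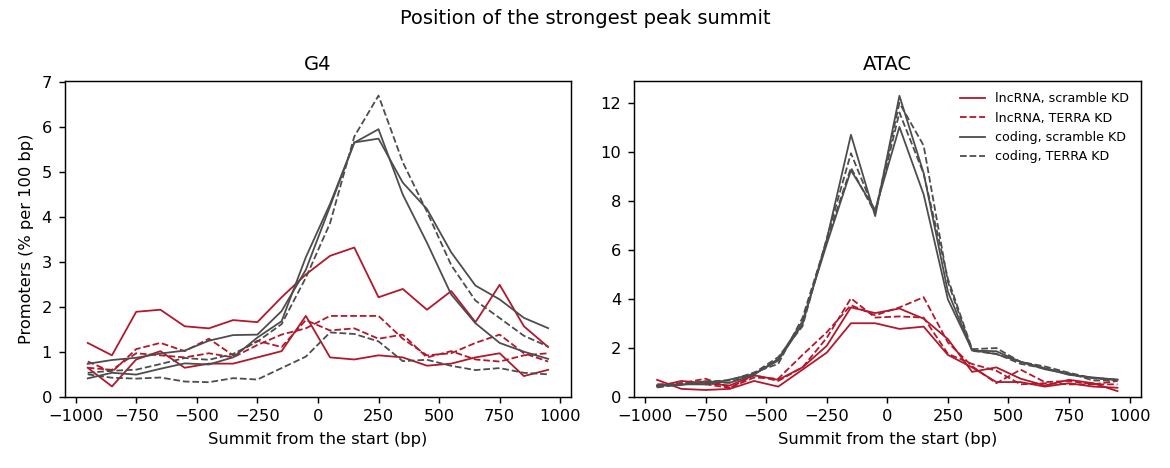
Position of the strongest peak summit relative to the start (x axis, bp, negative upstream) as percent of promoters per 100 bp (y axis, from 0) for G4 and ATAC, with red for lncRNA and grey for protein-coding promoters, solid for scramble KD and dashed for TERRA KD. ATAC summits of lncRNA promoters gather at the start in all 4 libraries, whereas their G4 summits are spread over the window and those of protein-coding genes have medians 193 to 273 bp inside the gene.

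Genes known from pluripotent cells were open almost without exception. The list held 15 members: Lncenc1, Oip5os1, Trp53cor1, Tunar and 11 Platr genes, the pluripotency associated transcripts. ATAC peaks were present at 14, 13, 13 and 13 of them in the order scramble KD 1 and 2, TERRA KD 1 and 2, and at 13 of 15 in all 4 lists. The exceptions were Platr5, with no ATAC peak, and Platr30, with 1 in scramble KD replicate 1 alone (−log10 p 16.9). Tunar, whose RNA is needed for the pluripotent state and for neural commitment, had an ATAC −log10 p of 34.0, 35.5, 32.3 and 38.5 in the same order, with summits 139 to 221 bp inside the gene. Platr4 had 20.6, 36.0, 17.9 and 30.6. Both groups of libraries thus listed these open promoters. Few of them carried other peaks, with G4 at 2, 4, 4 and 2 of 15, H3K9me3 at 1, 1, 0 and 0 and ATRX at 1, in TERRA KD replicate 1 (Platr30).

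Hosts of small RNAs divided into genes with and without ATAC peaks. Of the 26 hosts 12 are named Snhg, genes whose introns carry small nucleolar RNAs, and an ATAC peak was found at 11, 12, 12 and 12 of these. The list as a whole had ATAC peaks at 16, 18, 18 and 20 of 26. At Snhg8 the ATAC −log10 p was 30.9, 39.3, 30.8 and 43.4, and at Dleu2, host of Mir15a and Mir16-1, 18.7, 24.9, 26.8 and 34.5. Mir155hg and Mir17hg had no peak in any of the 16 lists at the annotated start, and Mir124a-1hg, host of a neuronal microRNA, carried G4 peaks in all 4 lists with no ATAC peak. ATRX peaks were listed for 5 of the 26 in TERRA KD replicate 1 (Mir9-3hg, Snhg6, Snhg8, Snhg17 and Snhg20) and for 0 in the other 3 lists. They rested on 4 to 8 tags with −log10 p between 2.24 and 3.78, and none of the 5 was listed in TERRA KD replicate 2.

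Imprinted lncRNAs differed by gene. Of 7 members, the 3 that start within an intron of their coding neighbour, Airn in Igf2r, Kcnq1ot1 in Kcnq1 and Peg13 in Trappc9, had ATAC peaks in all 4 lists. Airn and Kcnq1ot1 are the transcripts whose paternal expression silences neighbouring genes, and at Kcnq1ot1 the ATAC −log10 p was 34.3, 56.9, 44.2 and 48.5. H19 and Nctc1, neighbours on chromosome 7, had G4 peaks in all 4 lists and no ATAC peak, and Airn had both. At H19 the G4 −log10 p was 2.66, 2.55, 4.12 and 2.54. Meg3 and Mirg, at the Dlk1-Dio3 locus, had G4 peaks in both replicate 2 lists alone. None of the 7 carried H3K9me3 in any list.

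The widely expressed nuclear and scaffold lncRNAs, 8 members, had ATAC peaks at 7, 8, 8 and 8. Only Neat1, the RNA core of paraspeckles, lacked it in 1 list, scramble KD replicate 1, and its −log10 p in the other 3 was 5.30, 5.93 and 5.92. Malat1, a nuclear speckle RNA, had 23.8, 33.1, 16.6 and 21.2. G4 peaks were listed for 5, 5, 6 and 0 of the 8, and at Norad, a cytoplasmic RNA that binds Pumilio proteins, at Dancr and at Miat in each library but the one that stood apart. Developmental and Hox-linked lncRNAs, 9 members, were mixed, with an ATAC peak at 3, 2, 4 and 5 in the same order, 2 members with it in all 4 lists and 3 in none. Hotair and Rmst had no peak in any list. Sox2ot, which overlaps the Sox2 gene, carried a G4 peak in all 4 lists (−log10 p 5.21, 8.52, 9.18 and 4.53) and an ATAC peak in TERRA KD replicate 2 alone.

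**Figure D4:**
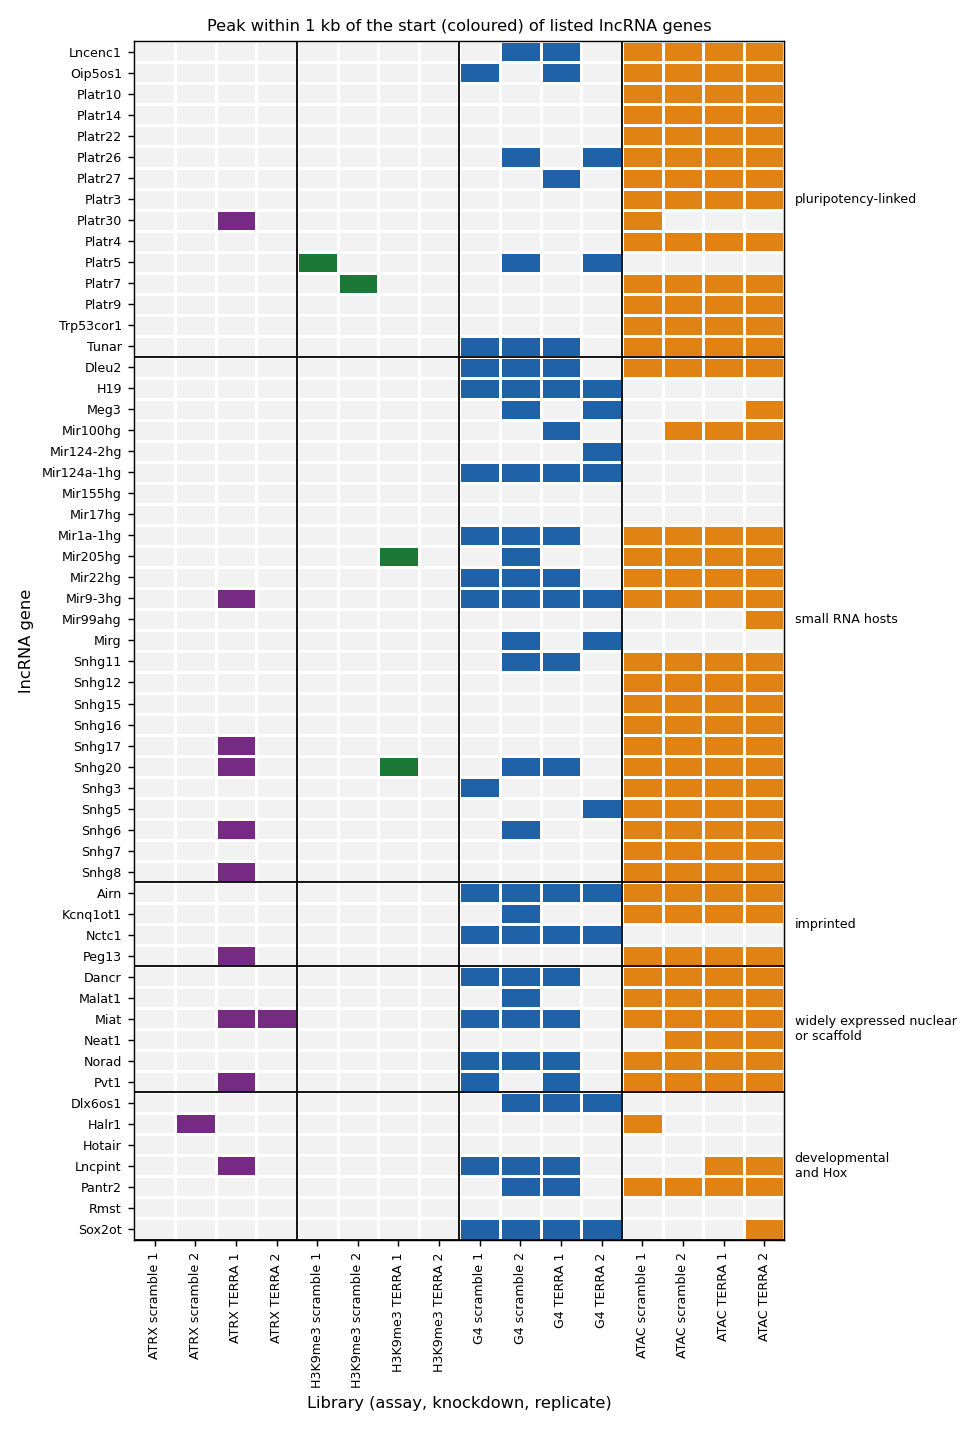
Presence of a peak within 1 kb of the start (coloured cell) in each of 16 libraries (x axis, 4 per assay) for 57 named lncRNA genes (y axis), grouped by list; grey cells have no listed peak, and a gene in several lists is drawn once. ATAC columns are filled for 13 of 15 pluripotency-linked genes in all 4 libraries, and ATRX cells lie in the TERRA KD columns for all genes but Halr1.

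ATRX peaks at lncRNA promoters were few in scramble KD and more frequent in TERRA KD. Scramble KD replicate 1 had such a peak at 18 of 2166 promoters and replicate 2 at 12, while TERRA KD replicate 1 had it at 147 and replicate 2 at 63. Both TERRA KD libraries lay above both scramble KD libraries, with means of 0.693% ± 0.196 (SD, n = 2) and 4.85% ± 2.74 (SD, n = 2). They were 4.16 percentage points apart, with 5.96 for the replicate 1 pair and 2.36 for the replicate 2 pair (two-sided exact permutation test, p = 0.333, adjusted 0.667). Over the whole genome, too, the ATRX lists of TERRA KD were longer (41384 and 21718 peaks) than those of scramble KD (7321 and 13652), and when equally many of the strongest peaks were taken from both lists of a replicate the difference was 0.785 percentage points. With peaks of −log10 p of at least 5 it was 0.162. TERRA KD replicate 1, with the longest ATRX list, had the fewest tags of the ATRX libraries (4104486, input 3374834), and the part of depth was not tested.

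Over all promoters the ATRX change at lncRNA genes was smaller than at coding ones in both replicates, an order that turned among CpG-rich promoters. Protein-coding promoters had ATRX peaks in 1.10% and 0.579% of cases after scramble KD, and after TERRA KD in 8.38% and 4.97%. The change at lncRNA promoters minus that at protein-coding promoters was −1.68 percentage points, −1.32 and −2.04 by replicate (exact permutation test, p = 0.333, adjusted 0.444), and 0.0292 with peaks of −log10 p of at least 5, where the sign turned. Over all 4 libraries the lncRNA share minus the coding share was −0.989 (exact sign-flip permutation test, p = 0.125, adjusted 0.167), or 0.00712 with the same stronger peaks. CpG-rich lncRNA promoters had 0 ATRX peaks among 128 in both scramble KD lists, and 20 (15.6%) and 10 (7.81%) in TERRA KD. CpG-rich coding promoters went from 1.22% and 0.304% to 10.4% and 5.95%, so that the lncRNA share was lower in scramble KD and higher in TERRA KD, with a mean difference of 1.39 percentage points over the 4 libraries (exact sign-flip permutation test, p = 0.5, adjusted 0.5 over 8 tests within classes). The other lncRNA promoters went from 0.883% and 0.589% to 6.23% and 2.60%, and their mean difference from coding promoters of that class was −0.495 (same exact test, p = 0.125, adjusted 0.2). In TERRA KD replicate 1, 57.1% of the 147 promoters with an ATRX peak also had an ATAC peak, against 28.2% of those without, and in replicate 2 the values were 54.0% of 63 and 32.9%. H3K9me3 was listed at 16.3% and 14.3% of the ATRX-marked promoters and at 3.37% and 4.04% of the rest. All starts had the same directions. There the ATAC shares were 82.7% against 61.2% and 79.6% against 64.1%, and those of H3K9me3 6.73% against 1.97% and 5.34% against 1.86%. In scramble KD, of 18 and 12 lncRNA promoters with ATRX, 5 and 0 had an ATAC peak and 3 and 2 an H3K9me3 peak. Each share sets the list of an ATRX library against that of another assay with the same knockdown and replicate number. Whether such libraries came from the same cells is not given, and the shares were not tested.

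Which promoters carried ATRX repeated little. The 18 and 12 scramble KD promoters shared 0, and the 147 and 63 of TERRA KD shared 13, which is 8.84% and 20.6%. A promoter was counted as gained when both TERRA KD lists had a peak there and no scramble KD list did, and as lost in the reverse case. For ATRX, 12 lncRNA promoters (0.554%) were gained, where 0.717% of all 24963 curated starts were, and 0 were lost, where 0.00801% of all starts were. The share at lncRNA promoters is thus near that of all starts, and the count of 12 became 0 with peaks of −log10 p of at least 5, 2 with equal numbers of top-ranked peaks, 6 in windows of 500 bp and 25 in windows of 2 kb. Of the 12, all had a G4 peak in at least 1 list (63.5% of lncRNA promoters and 75.9% of all starts did), 11 an ATAC peak (38.7% and 67.9%), and 7 an ATAC peak in all 4 lists (22.4% and 57.7%). The G4 motif was present in 7 of the 12, and in 71.0% of all starts that gained ATRX.

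The gained ATRX peaks rested on few tags, with 1 exception. They held a median of 5 tags in TERRA KD replicate 1 and 12 in replicate 2, with median −log10 p of 2.41 and 2.43. The exception was 2700054A10Rik (chromosome 17, start 13554094, minus strand), with 342 and 595 tags and −log10 p of 3.76 and 205. At the same place, with summits 1153 to 1265 bp inside the gene, its H3K9me3 peaks in both replicate 2 lists had −log10 p of 208 and 310, its G4 peak in scramble KD replicate 2 held 2515 tags, and its ATAC peak ranked within the top 0.451% to 3.17% of each list. Tags were thus concentrated there in all 4 assays, and what part this has in the ATRX gain was not tested. At Miat, a nuclear lncRNA, the peaks held 4 and 12 tags (−log10 p 2.23 and 2.52), while its ATAC peaks were listed in all 4 libraries.

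Neighbouring members can share a peak. Mirc35hg, host of a microRNA cluster, and BB283400 start at 30174125 and 30176623 on chromosome 6 and point away from each other. Both gained ATRX, with 6 and 10 tags at Mirc35hg and 5 and 14 at BB283400, and 1 G4 peak of 4309 bp in scramble KD replicate 2 (201 tags, −log10 p 34.2) covered both. The G4 motif of Mirc35hg shown above lies in that stretch. At 1700030C10Rik, whose C runs cross the start, ATRX peaks of 5 and 15 tags (−log10 p 2.44 and 3.97) joined G4 peaks in 3 lists and ATAC peaks in all 4. Mirc35hg, 1700030C10Rik, A730013G03Rik and Miat are the CpG-rich members of the 12.

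H3K9me3 marked few lncRNA promoters, though a larger share of them than of coding promoters in each library. Peaks overlapped 88 promoters (4.06%) and 76 (3.51%) in the scramble KD lists, and 92 (4.25%) and 94 (4.34%) in those of TERRA KD. Both TERRA KD values lay above both scramble KD values, by means of 4.29% ± 0.0653 (SD, n = 2) and 3.79% ± 0.392 (SD, n = 2), or 0.508 percentage points, with 0.185 for the replicate 1 pair and 0.831 for the other (exact permutation test, p = 0.333, adjusted 0.667). That direction turned when a promoter was counted by the centre of the peak in place of any overlap (−0.0231). Protein-coding promoters had 1.62% to 2.11%, and the within-library difference was 2.19 percentage points on average, between 1.84 and 2.72 (exact sign-flip permutation test, p = 0.125, adjusted 0.167). Within the promoters that are not CpG-rich it was 1.64 percentage points, 4.13% ± 0.346 against 2.49% ± 0.151 (SD, n = 4 libraries), again higher at lncRNA genes in 4 of 4 libraries (p = 0.125 by the same exact permutation test, adjusted 0.2), and among CpG-rich promoters it was 1.36, with the same p and direction. The knockdown change at lncRNA promoters minus that at coding ones was 0.468 percentage points (exact permutation test, p = 0.333, adjusted 0.444).

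H3K9me3 peaks were more frequent at lncRNA promoters rich in repeats. Where repeats covered at least 50% of the window, H3K9me3 peaks were listed at 18.8%, 12.9%, 22.8% and 22.8% of promoters (n = 101, scramble KD 1 and 2, TERRA KD 1 and 2), and elsewhere at 3.34%, 3.05%, 3.34% and 3.44% (n = 2065). A peak was present in all 4 lists at 15 lncRNA promoters (0.693%), against 0.317% of all starts. Their repeats covered a median of 40.0% of the window and 0 of them were CpG-rich. All starts with H3K9me3 in all 4 lists had 27.3% repeats, and 17.7% were CpG-rich. Of the 15, 9 had an ATRX peak in at least 1 list, as did 10.3% of lncRNA promoters and 13.9% of all starts. Gm15446, inside an intron of LOC115490200 on chromosome 5, led the 15. Its −log10 p was 113, 42.4, 39.4 and 56.1, with a peak of 25758 bp in TERRA KD replicate 1. Its ATRX peak in TERRA KD replicate 1 (77 tags, −log10 p 26.5) ranked in the top 0.539% of that list, and the other 3 lists had none. At 4930521O11Rik repeats covered 95.7% of the window, and H3K9me3 −log10 p was 14.9, 3.50, 17.2 and 10.3.

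ATRX and H3K9me3 peaks lay together in each TERRA KD replicate at 3 promoters, A530065N20Rik, 9630028I04Rik and Gm20110. These are among the 13 lncRNA promoters with ATRX in both TERRA KD lists. The scramble KD count was 0, and it could not be higher, because no lncRNA promoter had ATRX in both scramble KD lists. The 2 counts therefore do not show a change with the knockdown. The same count over all curated starts was not made, so whether 3 is unusual was not tested. A530065N20Rik had ATRX peaks in scramble KD replicate 2 and in both TERRA KD lists (−log10 p 3.64, 20.9 and 2.61), over H3K9me3 in all 4. Gm20110 gained ATRX (4.95 and 2.14) and ATAC (5.16 and 4.66) while its H3K9me3 peaks were listed in all 4 libraries (13.0, 8.69, 12.6 and 6.78). The H3K9me3 peak over 9630028I04Rik in TERRA KD replicate 1 was 48143 bp long, so its own promoter is a small part of it.

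Gains and losses of H3K9me3 in both replicates were rare. Gained were 7 lncRNA promoters (0.323%), where 0.128% of all starts were, and lost was 1 (0.0462%), where 0.0561% of all starts were. The 7 became 3 with peaks of −log10 p of at least 5, and 4 by peak centre or in windows of 500 bp, while losses numbered 6 in windows of 2 kb. The 7 were Gm19951, 2310081J21Rik, 4933401D09Rik, Gm32455, Gm12505, Gm36173 and Gm33302. All lay between protein-coding genes, as did 79.3% of lncRNA promoters. Of the 7, 1 had an ATAC peak in some list (Gm36173), as did 38.7% of lncRNA promoters and 67.9% of all starts. In TERRA KD replicate 1 the gained H3K9me3 peaks had a median length of 4704 bp and a median −log10 p of 9.14. In replicate 2 they had 629 bp and 3.69. The single loss was at 4930571O06Rik, with −log10 p of 3.81 and 3.09 in the scramble KD lists.

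G4 peaks gave the least stable picture, since the scramble KD libraries differed more from each other than the group means did. G4 peaks overlapped 424 (19.6%) and 1215 (56.1%) lncRNA promoters in the scramble KD lists. In the TERRA KD lists, which lay close together, they overlapped 617 (28.5%) and 657 (30.3%). The group means were 37.8% ± 25.8 (SD, n = 2) and 29.4% ± 1.31 (SD, n = 2), and their difference, −8.43 percentage points, combined 8.91 for the replicate 1 pair with −25.8 for the other (exact permutation test, p = 1.0). Without G4 TERRA KD replicate 2 the difference was −9.35. At lncRNA promoters, however, scramble KD replicate 2 (56.1%) lay furthest from the other G4 lists, and leaving it out alone was not tried. Depth moved with these values, from 2961038 tags in scramble KD replicate 1 to 24588605 in replicate 2, and its part was not tested.

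Against protein-coding promoters the lncRNA share of G4 peaks was lower in 3 libraries and higher in 1. The within-library difference ran down to −25.4 percentage points in scramble KD replicate 1 and was 9.69 in TERRA KD replicate 2, with a mean of −12.3 (exact sign-flip permutation test, p = 0.25). Without TERRA KD replicate 2 the mean was −19.7. Within a CpG class the mean difference was smaller, −5.51 percentage points among CpG-rich promoters and −5.85 among the others (same exact test, p = 0.25 for both, adjusted 0.286). Promoters with the G4 motif had a G4 peak in 32.2%, 67.7%, 41.3% and 37.7% of cases (n = 870, scramble KD 1 and 2, TERRA KD 1 and 2), and those without it in 11.1%, 48.3%, 19.9% and 25.4% (n = 1296). The share was higher with the motif in 4 of 4 libraries, and the gap was narrowest in TERRA KD replicate 2. Among CpG-rich lncRNA promoters the share was 51.6%, 63.3%, 60.2% and 17.2%, so that the last library was low there, as it was at 10.2% of CpG-rich coding promoters. The knockdown change at lncRNA promoters minus that at coding ones was 10.8 percentage points (exact permutation test, p = 0.667) and −5.76 without TERRA KD replicate 2, so its sign rests on that library.

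A G4 peak was lost at a smaller share of lncRNA promoters than of all starts, and fewer of them had one to lose. By the rule above 37 lncRNA promoters (1.71%) lost a G4 peak, where 4.86% of all starts did, and 11 (0.508%) gained one, where 0.228% did. A loss requires a G4 peak in both scramble KD lists, which 362 lncRNA promoters (16.7%) and 35.6% of all starts had, and of these 10.2% and 13.6% lost it. Both counts rest on TERRA KD replicate 2, which stood apart, and the count of gains ranged from 3 with peaks of −log10 p of at least 5 to 27 with equal numbers of top-ranked peaks. Of the 37, 28 (75.7%) held the G4 motif, as did 68.9% of all starts that lost G4. An ATAC peak was present in some list at 22 of the 37, as at 38.7% of lncRNA promoters and 67.9% of all starts. It was in all 4 lists at 13, as at 22.4% and 57.7%. Among the 37 were Gm7457, Gm14273, Hdnr, a lncRNA downstream of Hand2, and 1700001L05Rik. At 1700001L05Rik, whose G runs are shown above, the G4 peaks of scramble KD held 5 and 30 tags (−log10 p 4.91 and 4.46), and ATAC peaks were listed in all 4 libraries with −log10 p of 11.1, 15.9, 16.2 and 12.2. The 37 peaks held a median of 5 tags in scramble KD replicate 1 and 30 in replicate 2.

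Of the 11 promoters that gained G4, 2 held the motif and 0 were CpG-rich, where 50.9% and 29.8% of all starts that gained G4 did so, and 40.2% and 5.91% of all lncRNA promoters. Gm15511, which starts in an exon of Rora on the opposite strand, led them with −log10 p of 7.35 and 5.33 and summits at −23 and −49 bp. Gm36173 gained both G4 and H3K9me3. Over the 11 the median −log10 p was 4.28 in TERRA KD replicate 1 and 2.47 in replicate 2.

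G4 and ATAC peaks in all 8 lists were found at 33 lncRNA promoters (1.52%), against 4.43% of all starts. The motif was present in 28 of the 33 (84.9%), close to the 82.4% of all starts with the same pattern. Gm31786, shown above, is one of them, with G4 −log10 p between 4.02 and 10.04 and ATAC summits at −152 to −107 bp. Mir9-3hg, the host of Mir9-3, belongs here too, with G4 −log10 p of 4.21, 4.24, 6.18 and 2.65 and ATAC summits at −791 to −425 bp. Rnf227 is listed among them because RefSeq assigns this gene, named for a ring finger protein, the lncRNA type. In all, G4 peaks were present in all 4 lists at 184 lncRNA promoters (8.50%, all starts 9.36%) and in none at 790 (36.5%).

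ATAC gains were more numerous than losses at lncRNA promoters, as they were at all starts, by a margin that depended on the peaks counted. Gained were 30 (1.39%), where 0.605% of all starts were, and lost were 11 (0.508%), where 0.244% of all starts were. A gain requires no ATAC peak in either scramble KD list, and a larger share of lncRNA promoters than of all starts met this. No ATAC peak in any list, which is a stricter condition, was found at 61.3% of lncRNA promoters and at 32.1% of all starts. The gained share among promoters that could gain was not computed, so 1.39% and 0.605% do not show a higher rate of gain. Of those with a peak in both scramble KD lists, 2.12% of lncRNA promoters and 0.415% of all starts lost it. With equal numbers of top-ranked peaks 17 were gained and 14 lost, and with peaks of −log10 p of at least 5, 17 were gained and 10 lost. The 30 gained peaks were small, with median pileups of 6 and 7.5 and median −log10 p of 4.22 and 4.66, and 24 of the promoters had a G4 peak in some list, as did 63.5% of lncRNA promoters and 75.9% of all starts. Lncpint, a p53-induced lncRNA on chromosome 6, was among them, with −log10 p of 4.24 and 4.49, G4 peaks in 3 lists and an ATRX peak in TERRA KD replicate 1 (3.67). Gm45916 lost G4 and gained ATAC, with −log10 p of 5.16 and 11.9. Among the 11 losses was Tbx3os2, antisense to Tbx3, with −log10 p of 8.18 and 5.83 in scramble KD, and Gm32815, which lies 841306 bp from the nearest coding start, with 5.52 and 6.83.

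**Figure D5:**
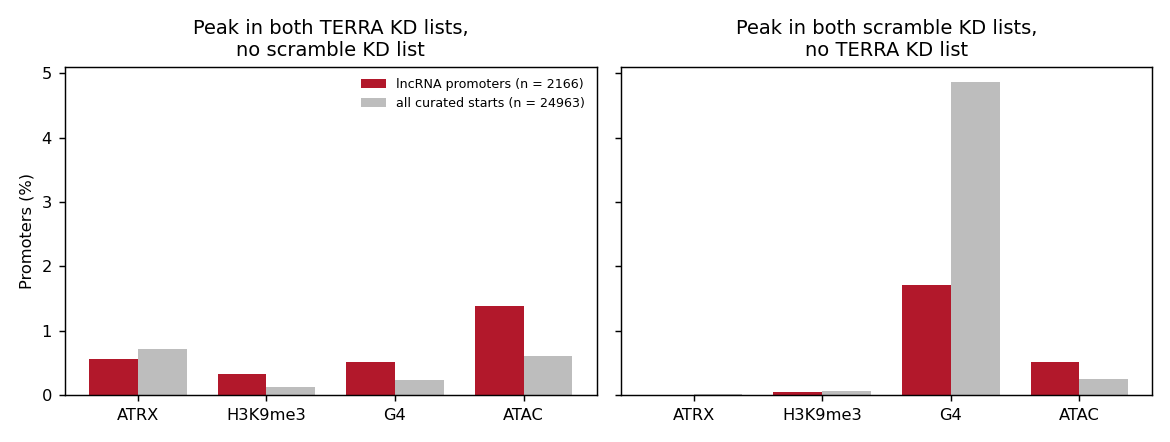
Percent of promoters (y axis, from 0) with a peak in both TERRA KD lists and no scramble KD list (left) or the reverse (right), per assay, for 2166 lncRNA promoters (red bars) and 24963 curated starts (grey bars). Lost G4 peaks are 1.71% of lncRNA promoters and 4.86% of all starts, and gained ATAC peaks 1.39% and 0.605%. Bars are shares of all promoters, not only of those that could gain or lose a peak.

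A large group of lncRNA promoters had no listed peak. No peak was listed in any of the 16 lists at 481 of them (22.2%), against 12.9% of all starts. Their median GC content was 41.9%, the G4 motif was present in 94 (19.5%, and 13.7% of all starts without a peak) and 1 was CpG-rich. Hotair, the HoxC antisense transcript, Rmst, a neuronal lncRNA, Mir155hg and Mir17hg are examples.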

How the data were processed

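Per the labels and the study's methods, the authors trimmed reads with Trim Galore 0.5.0, aligned them to mm10 with Bowtie2 2.3.4.1, removed duplicates with SAMtools 1.9 and called peaks in each library separately at a p of 0.01, with MACS 1.4.3 (ATRX, H3K9me3) or 1.4.2 (G4) against input and MACS 2.2.7.1 without input for ATAC. The deposited lists give counts of tags per peak, a score (10 times −log10 p, divided by 10 here), a fold enrichment ratio over background and, for ATAC, pileup signal and −log10 p. None is scaled between libraries, so presence was compared, not height.

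From these lists, a promoter carried a peak if they shared at least 1 bp. Shares were compared over libraries with exact permutation tests (Python 3.11.15, numpy 2.4.6, pandas 2.3.3, scipy 1.17.1; figures with matplotlib 3.10.9), adjusted by Benjamini-Hochberg within each family. Counting was checked on simulated peak lists. RefSeq GRCm38.p6 gave starts, base composition and repeats. Named genes are members of 5 symbol lists and, per pattern, at most 10 promoters ordered by the worst rank of their peaks within a list, with chromosome 18 counted but not named. The promoters, gene lists and tests were chosen with earlier results of these data known, and the comparisons within CpG classes and without G4 TERRA KD replicate 2 after seeing the values below. Alternatives changed the peak threshold, the overlap, the window, the set of promoters and the libraries. A false discovery rate column was not used.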

Additional observations from a re-analysis of the deposited data

How the results depend on the processing

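Of 124 differences recomputed with all libraries 120 kept their direction, and 4 turned: with peaks of −log10 p of at least 5, the ATRX difference between lncRNA and coding promoters (0.00712), and the change at lncRNA minus coding promoters for ATRX (0.0292) and ATAC (−0.0334), and, counted by peak centre, the H3K9me3 knockdown difference (−0.0231). The cause was not tested. The 124 and 120 include the recomputation with the replicate number as a block, which leaves a mean difference unchanged by construction. Leaving out a replicate gave knockdown differences of 2.36 to 5.96 (ATRX), 0.185 to 0.831 (H3K9me3), −25.8 to 8.91 (G4) and 2.22 to 4.62 (ATAC), and changes minus coding changes of −2.04 to −1.32, 0.0498 to 0.886, 1.94 to 19.7 and 1.75 to 1.85 percentage points. Differences from coding promoters were −1.04 to −0.934, 2.11 to 2.28, −24.5 to −0.176 and −39.2 to −37.6. Without the single library G4 TERRA KD replicate 2, left out after seeing the data, these G4 values were −9.35, −5.76 (where the sign turned) and −19.7.

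Of 72 recomputed counts 16 moved by more than 1.5 times. With −log10 p of at least 5, gains were 0 (ATRX), 3 (H3K9me3), 3 (G4) and 17 (ATAC), and H3K9me3 losses 0. With equal numbers of top-ranked peaks, gains were 2 (ATRX), 27 (G4) and 17 (ATAC). By peak centre they were 4 (H3K9me3) and 17 (G4). Windows of 500 bp gave 6 (ATRX), 4 (H3K9me3) and 7 (G4), and windows of 2 kb gave 25 ATRX gains, 1 ATRX loss and 6 H3K9me3 losses.

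The sources do not say that a replicate number marks a shared culture or day, so the main tests did not pair libraries by it. Lists were matched by that number for the ATAC and H3K9me3 shares at ATRX-marked promoters. The equal numbers of top-ranked peaks and the differences given for a replicate pair also used it. Other matchings were not tried. In H3K9me3, same-numbered lists were nevertheless alike in peak length, and 70.5% of the lncRNA promoters called in scramble KD replicate 1 were called in TERRA KD replicate 1, against 30.7% in scramble KD replicate 2. Deviations of same-numbered libraries correlated over all starts at r = 0.00825 (ATRX), 0.230 (H3K9me3), 0.250 (G4) and 0.103 (ATAC). With the replicate block the knockdown differences are the same by construction, 4.16, 0.508, −8.43 and 3.42, and the exact sign-flip test on 2 pairs cannot give a p below 0.5.

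Depth limits what a missing peak shows: the peaks of single libraries rest on a median of 5 tags at lncRNA promoters with ATRX in TERRA KD replicate 1, and none of the comparisons of groups can reach 0.05.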
